A study of Rattus norvegicus with 10 samples.

Results

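The genes described here are 10 transcripts that mark disease-associated microglia: Spp1, Gpnmb, Itgax, Lpl, Cst7, Clec7a, Axl, Trem2, Tyrobp and Cd68. They were taken by symbol from a table of 32623 rat genes, each symbol stood beside 1 identifier, and all 10 passed the minimum mean of 10 normalized counts that left 15597 genes for testing. Cst7 passed only through the shOpn3 samples, as its mean in shControl was 5.23. RNA had been sequenced from the hypothalamic supraoptic nucleus in male rats of the outbred Sprague Dawley strain, whose age is not given in the sources used here. The 5 samples called shControl came from nuclei that had received an adeno-associated virus with a non-targeting short hairpin RNA, and the 5 called shOpn3 from nuclei on the opposite side, where the virus carried a hairpin against Opn3. Tissue was taken 2 weeks after the virus. Every nucleus had thus been injected and every sample carried a viral hairpin, so no comparison with uninjected tissue was made. The cells that took up the virus, and the promoter that drove the hairpin, are not given in the sources used here. A punch holds many cell types, so more cells of a type and more RNA per cell cannot be told apart in any result below.

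Microglia are the resident macrophages of the brain. In neurodegeneration, demyelination and ageing some of them leave their homeostatic state and take on a programme known as disease-associated, which lowers homeostatic genes and raises genes of phagocytosis, lysosomes and lipid handling. Trem2, a receptor for lipids and lipoproteins, signals through the adaptor Tyrobp, and the later step of the programme is known to depend on Trem2. Itgax, Clec7a and Axl are surface receptors raised in that state, Lpl hydrolyses triglycerides in lipoproteins, Cst7 is a cysteine protease inhibitor, Cd68 and Gpnmb are membrane proteins of late endosomes and lysosomes, and Spp1 encodes the secreted protein osteopontin. Several of these transcripts are not restricted to microglia: Axl and Lpl are also made by other brain cells.

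Reads counted to genes summed to between 33158341 and 39958578 per sample. Opn3 itself had 261 to 1007 normalized counts in shControl and 145 to 290 in shOpn3. Avp and Oxt, which mark the magnocellular neurons of this nucleus, were present in every sample and summed to between 52511 and 158977 in shControl and between 8429 and 30626 in shOpn3. Of 7 oligodendrocyte markers, 7 fell (8.48% of all genes tested did), and their sum lay between 717042 and 1221919 in shControl and between 243665 and 460811 in shOpn3. These shifts went with the hairpin in the same samples as the changes described below, and their part in those changes was not tested.

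All 10 members rose in shOpn3 (limma adjusted p from 2.22e-05 to 0.0189), where 10.4% of all genes tested were called higher. Cst7 counts among the 10 although it passed the filter only through the group where it is high. In 8 of the 10 the groups had no overlap, against 8.03% of all genes tested, the exceptions being Cst7 and Trem2. In 9 of the 10 the shOpn3 sample was higher in 5 of 5 same-numbered pairs, against 18.7% of all genes tested. With replicate numbers added to the model as a block, 10 of 10 were called as well, where 15.1% of all genes were called higher. The median log2 difference of the members was 2.09 (range 0.93 to 4.34), beside -0.0192 for all genes tested. Summed over the members, normalized counts ranged from 3591 to 4739 in shControl and from 9924 to 21618 in shOpn3.

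**Figure D1:**
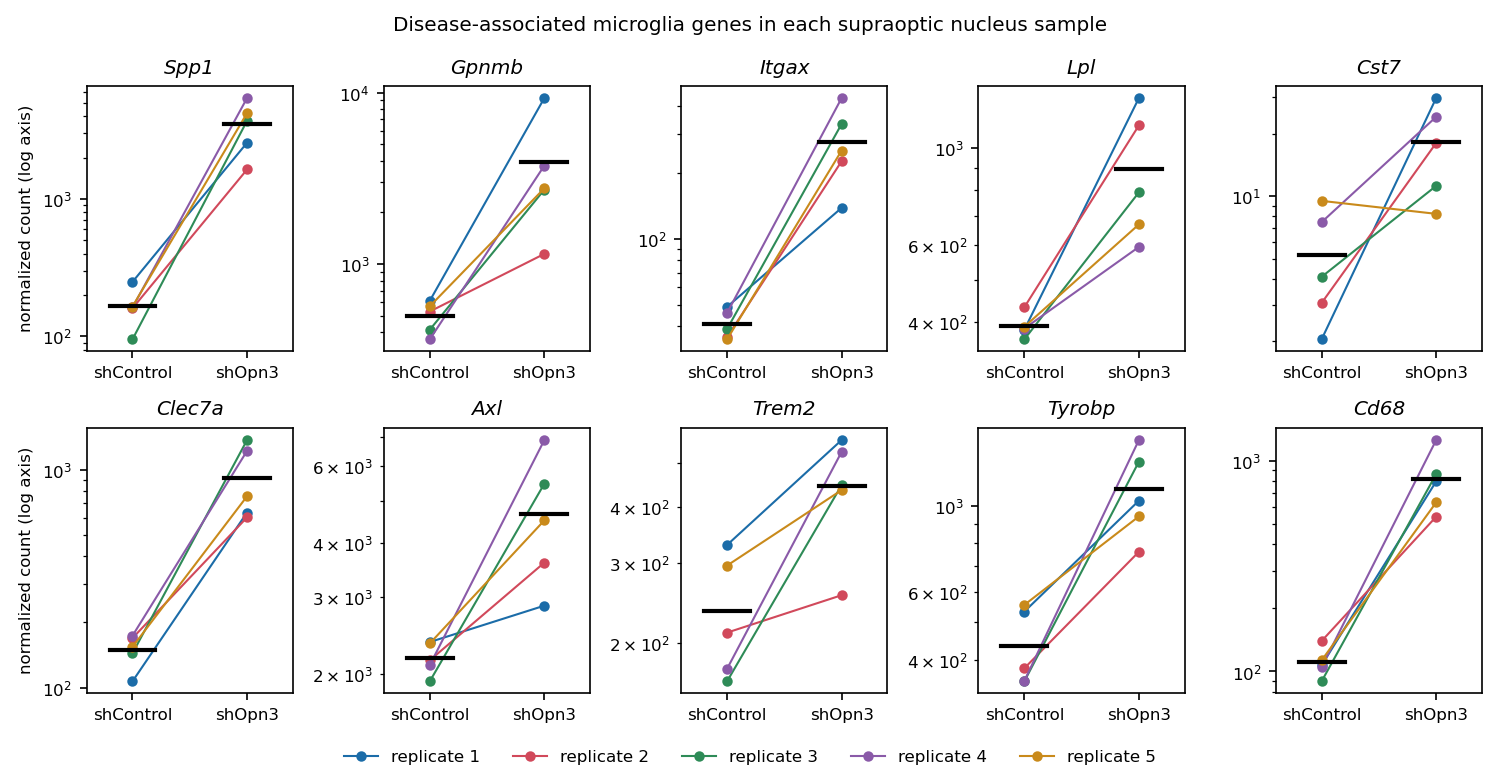
Normalized counts (vertical log axis, scaled for each gene) of the 10 members in the 5 shControl and 5 shOpn3 samples; lines join samples with the same replicate number and black bars are group means. All shOpn3 points lie above all shControl points except for Cst7 and Trem2, and for Cst7 the line of replicate 5 slopes down.

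Among the receptors of the surface, Trem2 had the smallest difference of the 10. Its normalized counts were 329, 211, 164, 175 and 296 in shControl replicates 1 to 5 and 562, 255, 447, 529 and 436 in shOpn3 replicates 1 to 5. The groups overlapped, because shOpn3 replicate 2 lay below shControl replicates 1 and 5, yet each shOpn3 sample lay above its same-numbered control. The log2 difference was 0.93 (SE 0.242, limma adjusted p = 0.0189), with a mean of 235 ± 73.9 in the controls and of 446 ± 119 under the Opn3 hairpin (SD, n = 5 each).

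Tyrobp, the adaptor that carries the signal of Trem2 and of several other myeloid receptors, had normalized counts of 533, 381, 352, 353 and 555 in shControl and of 1032, 762, 1302, 1481 and 940.02 in shOpn3, in the order of the replicates. The lowest shOpn3 sample, replicate 2, stood above the highest control. Its log2 difference was 1.33 (SE 0.192, limma adjusted p = 0.000809).

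Clec7a encodes dectin-1, a receptor for fungal glucans that signals through the kinase Syk. It had 107, 169, 144, 173 and 154 normalized counts in shControl and 636, 604, 1366, 1219 and 755 in shOpn3. Even the lowest shOpn3 value lay far above the highest control value, and the group means differed 6.13-fold (log2 difference 2.54, SE 0.233, limma adjusted p = 0.000122). A long non-coding RNA of the RefSeq table (GRCr8) overlaps Clec7a, and whether reads were counted by strand is not given in the sources used here, so reads of that RNA could stand among its counts.

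Itgax, which encodes the integrin alpha chain CD11c, was scarce in control nuclei. Its normalized counts were 48.9, 35.6, 38.8, 45.9 and 34.8 in shControl and 138, 225, 333, 437 and 252 in shOpn3. No shOpn3 sample came near the control range, although replicate 1 rose least, from the highest control value to the lowest shOpn3 value. The log2 difference was 2.64 (SE 0.261, limma adjusted p = 0.000155).

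Axl, a receptor tyrosine kinase that binds apoptotic cells through the bridging protein Gas6, had 2368, 2150.1, 1924, 2095 and 2350.5 normalized counts in shControl. In shOpn3 it had 2871, 3606, 5475, 6899 and 4510. The controls lay close together, while the shOpn3 samples spread over a 2.40-fold range with replicate 1 at the bottom. The log2 difference of Axl was 1.04 (SE 0.192, limma adjusted p = 0.00299).

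Of the lysosomal proteins, Cd68 is the classic marker of phagocytic macrophages. Its normalized counts were 107, 139, 89.8, 105 and 113 in shControl and 796, 542, 862, 1249.9 and 633 in shOpn3. The gap between the groups was wide against the spread within either, and their means stood 7.37-fold apart (log2 difference 2.82, SE 0.202, limma adjusted p = 2.22e-05).

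Gpnmb, a transmembrane glycoprotein of lysosomes and melanosomes, had 611, 529, 414, 364 and 568 normalized counts in shControl and 9285, 1147, 2715, 3750 and 2766 in shOpn3. The samples of shOpn3 differed among themselves by 8.09-fold, the widest spread of the 10 genes in that group, with replicate 1 far above the others and replicate 2 at the bottom. The log2 difference of Gpnmb was 2.68 (SE 0.413, limma adjusted p = 0.00108), and 2.29 without shOpn3 replicate 1.

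Cst7, which encodes cystatin F, an inhibitor of cathepsins in endosomes and lysosomes, was the scarcest member. It had 2, 3, 4, 8 and 9 reads in shControl replicates 1 to 5 and 31, 17, 12, 25 and 8 in shOpn3. Replicates 1 and 2 of shControl were at or under the floor of 3 reads, and shOpn3 replicate 5 lay within the control range, below its same-numbered control. The normalized counts averaged 5.23 ± 3.14 and 18.3 ± 8.90 (SD, n = 5 each), and the log2 difference was 1.64 (SE 0.429, limma adjusted p = 0.0186). This was the call most open to processing: with quantile normalization the log2 difference was 1.25 and no longer called (limma adjusted p = 0.0570, over a range of 0.00412 to 0.0570 in all alternatives), and without shOpn3 replicate 1 the gene did not reach the minimum mean.

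The secreted members were Spp1 and Lpl. Spp1 had normalized counts of 249, 159.8, 94.9, 162 and 165 in shControl and of 2569, 1639.8, 3712, 5435 and 4218 in shOpn3. The ratio of the group means was 21.2, and Spp1 ranked 4 of the 15597 genes tested by its log2 difference of 4.34 (SE 0.308, limma adjusted p = 2.22e-05). Lpl had 384, 432, 365, 387 and 390.3 in shControl and 1300, 1126, 792, 594 and 669 in shOpn3, so that the controls were nearly level and the shOpn3 samples were not. Its log2 difference was 1.13 (SE 0.190, limma adjusted p = 0.00177).

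The authors' deposited table, an unpaired DESeq2 comparison of the same samples, gave log2 fold changes from 0.924 (Trem2) to 4.404 (Spp1) for the 10 members and adjusted p-values from 2.62e-46 to 0.00412.

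**Figure D2:**
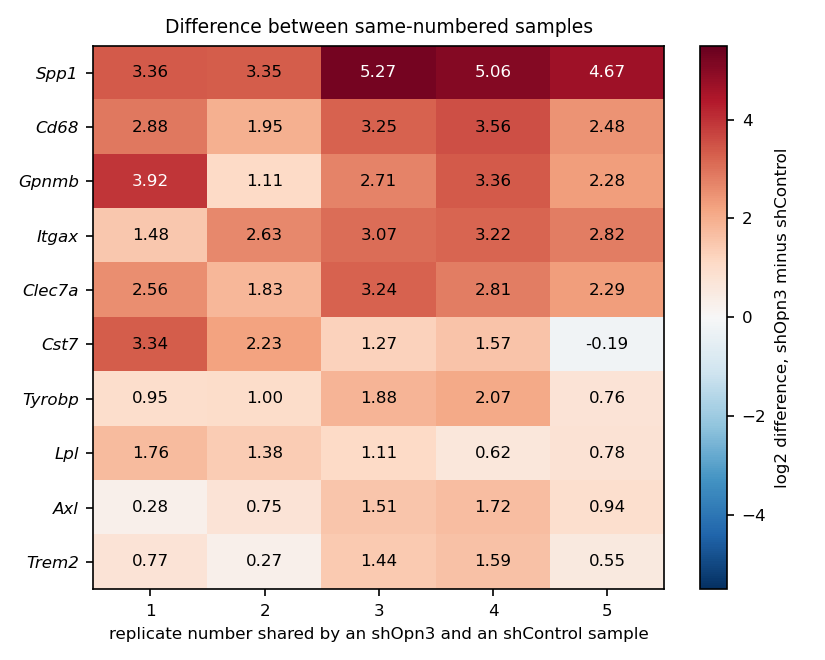
Log2 difference (log2 of normalized count + 1, shOpn3 minus shControl) of each member, in rows, between samples sharing a replicate number, in columns; red is higher in shOpn3. Of the 50 cells only that of Cst7 in replicate 5 is below 0 (-0.19); Gpnmb, Cst7 and Lpl are largest in replicate 1 and Axl, Tyrobp and Trem2 in replicate 4.

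The members did not follow a single order among the shOpn3 samples. Spp1, Itgax, Axl, Tyrobp and Cd68 were highest in replicate 4, Gpnmb, Lpl, Cst7 and Trem2 in replicate 1, and Clec7a in replicate 3. Lpl ran against most of the others, with its lowest shOpn3 value in replicate 4. Itgax and Axl had their lowest shOpn3 value in replicate 1, where Gpnmb stood at its highest. Replicate 2 was the lowest shOpn3 sample for 6 of the 10. The median difference over the members was 2.16, 1.61, 2.30, 2.44 and 1.61 on the log2 scale in pairs 1 to 5. Homeostatic microglial genes were also highest in shOpn3 replicate 4, where 11 of them summed to 38839 normalized counts, and lowest in replicate 2, at 21890. Whether that shared order has a part in the members' order was not tested.

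Promoter windows were available in RefSeq (assembly GRCr8) for 8 of the 10 members, Lpl and Tyrobp being the exceptions, and each covers 250 bases before to 50 bases after the annotated start. The 3 windows below are shown because they hold a match to TGAGTCA, a site bound by AP-1 factors. Members whose windows hold no such match also rose. GAGGAA, a core bound by PU.1 (Spi1), and TCACATGA and TCACGTGA, boxes bound by Mitf and its relatives, were searched as well. Both strands were searched, no match overlapped another, and capitals mark the matches as they read on the gene's strand.
Gpnmb (chr4:79340878-79341177, + strand): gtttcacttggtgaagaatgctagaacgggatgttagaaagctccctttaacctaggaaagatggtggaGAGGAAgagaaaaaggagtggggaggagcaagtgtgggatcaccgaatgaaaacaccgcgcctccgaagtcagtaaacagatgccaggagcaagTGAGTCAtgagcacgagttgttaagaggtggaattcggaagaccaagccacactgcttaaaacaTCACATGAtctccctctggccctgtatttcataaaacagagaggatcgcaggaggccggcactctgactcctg
Cd68 (chr10:54882392-54882691, - strand): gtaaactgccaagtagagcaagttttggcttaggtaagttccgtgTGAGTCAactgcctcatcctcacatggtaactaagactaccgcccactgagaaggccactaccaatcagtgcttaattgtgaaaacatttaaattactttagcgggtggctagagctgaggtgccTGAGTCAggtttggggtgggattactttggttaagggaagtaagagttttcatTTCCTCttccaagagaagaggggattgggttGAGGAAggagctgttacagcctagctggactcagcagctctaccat
Itgax (chr1:192149799-192150098, + strand): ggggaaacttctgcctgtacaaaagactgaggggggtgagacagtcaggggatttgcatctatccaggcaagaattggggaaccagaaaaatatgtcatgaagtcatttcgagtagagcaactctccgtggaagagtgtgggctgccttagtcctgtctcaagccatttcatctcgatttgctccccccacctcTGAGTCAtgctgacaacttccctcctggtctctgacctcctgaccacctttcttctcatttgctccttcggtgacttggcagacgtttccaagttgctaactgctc

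TGAGTCA was found in 3 of the 8 windows (Gpnmb, Itgax and Cd68), and in 4.63% of 33469 promoter windows of the same length. Its first base lay 87 bases before the start in Gpnmb, 56 in Itgax, and 205 and 80 in Cd68. TCACATGA was found only in Gpnmb, 23 bases before the start, and in 1.16% of all windows, while TCACGTGA was in 0 of the 8 and in 0.777% of all. GAGGAA or its reverse TTCCTC was in 4 of the 8 windows (Gpnmb, Axl, Trem2 and Cd68) and in 27.6% of all. These matches describe the letters of the windows alone, and binding was not measured.

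Regulators known from microglia and lysosomes were examined beside them. Of 12 such genes 6 rose and 0 fell, where 10.4% of all genes tested rose and 8.48% fell. Their median log2 difference was 0.54, beside -0.0192 for all genes tested. Tfec, a myeloid relative of Mitf, rose from a mean normalized count of 12.4 ± 6.15 to 80.5 ± 18.7 (n = 5 and SD for both; log2 difference 2.72, limma adjusted p = 0.000483). Runx1 rose by 1.62 and Bhlhe40 by 0.59 (limma adjusted p = 0.000306 for each). Irf8 and Spi1 were called as well, with log2 differences of 1.73 and 1.34. Mitf (-0.10), Tfeb (-0.65) and Tfe3 (-0.03), which bind the boxes named above, did not pass the test, and neither did Bhlhe41, Pparg and Nr1h3. With the replicate block Tfeb was called lower (limma adjusted p = 0.0298), which made 6 higher and 1 lower.

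Homeostatic microglial genes, which the disease-associated programme is known to lower, were not called lower. Of 11 such genes 7 rose and 0 fell (median log2 difference 0.69), beside 10.4% and 8.48% of all genes tested. P2ry12, a purine receptor of resting microglia, rose from a mean normalized count of 808 ± 79.9 to 1493 ± 237 (n = 5 and SD for both; limma adjusted p = 0.000483). Csf1r, the receptor on which microglia depend for survival, rose by 1.06 and Gpr34 by 0.95 on the log2 scale (limma adjusted p = 0.00128 and 0.00195). Tmem119 had a log2 difference of 0.69 and narrowly missed the threshold (limma adjusted p = 0.0511; called with the replicate block, 0.0386), and Sall1 (0.22), Selplg (0.30) and Olfml3 (0.16) were not called. Among 9 general markers of myeloid cells and leukocytes 8 rose (median 1.13), among them Fcer1g (1.43), Cd53 (1.32) and Ptprc (1.57), the 3 with the lowest p-values.

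**Figure D3:**
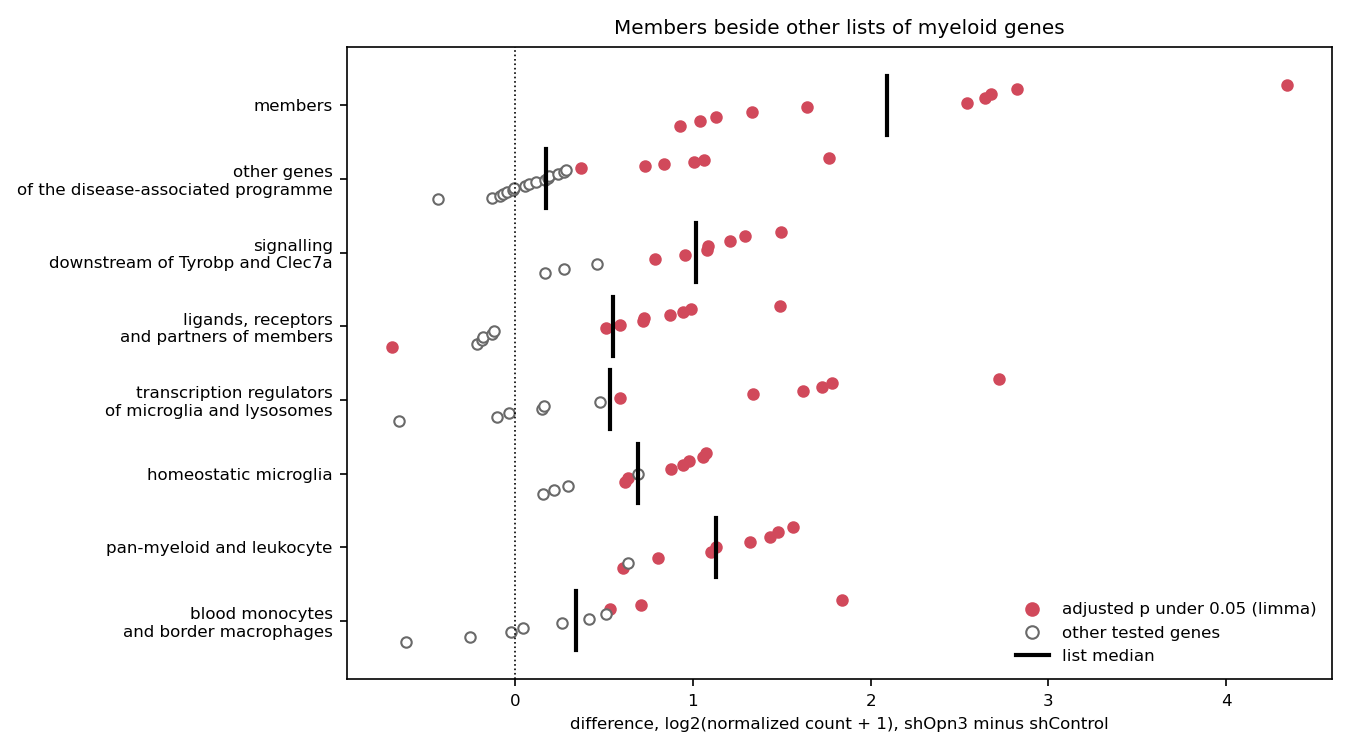
Log2 difference (shOpn3 minus shControl, log2 of normalized count + 1) of each tested gene in 8 lists; filled points have a limma adjusted p under 0.05, open points do not, and black bars are list medians. The members range from 0.93 to 4.34 with all points filled, whereas the 22 other genes of the programme have a median of 0.18 and 6 filled points.

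Because homeostatic genes rose too, each member was compared with them. The mean log2 value of the 11 homeostatic genes was subtracted from every gene in each sample, and all genes were fitted again. Relative to this reference, which itself rose by 0.69, 6 of the 10 members were higher in shOpn3 (limma adjusted p from 4.56e-12 to 0.00245), against 2.68% of the other genes tested. Subtracting a reference that rose lowers the difference of every gene, so that share is no chance rate for microglial genes. Without the subtraction 10.4% of all genes tested were called higher. The 6 members were Spp1 (log2 difference 3.66), Cd68 (2.14), Gpnmb (1.99), Itgax (1.96), Clec7a (1.86) and Tyrobp (0.65), and for each the groups did not overlap. The share of all genes without overlap on this relative scale was not computed. Every gene in this fit carries the same reference, so the spreads of genes are not independent. The prior degrees of freedom of limma were 20.2, against 4.22 without the reference, and its p-values are likely too small. An exact two-sided permutation test over samples, run for each of the 10 members and not adjusted, gave p = 0.00794 for these 6, the smallest that 252 splits allow. Groups without overlap always give that value, so for these 6 the test adds nothing to the lack of overlap. Its splits also ignored the pairing of samples.

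The 4 other members were not called beyond the homeostatic reference. Relative to it, the log2 difference was 0.24 for Trem2 (SE 0.206, limma adjusted p = 0.282), 0.35 for Axl (SE 0.183, limma adjusted p = 0.0787), 0.44 for Lpl (SE 0.246, limma adjusted p = 0.0987) and 0.96 for Cst7 (SE 0.445, limma adjusted p = 0.0513). The exact permutation p was 0.294 for Trem2, 0.0476 for Axl, 0.270 for Lpl and 0.0952 for Cst7. With the replicate block Cst7 passed (limma adjusted p = 0.0412). On this relative scale Lpl stood below the lowest control in shOpn3 replicate 4 and above the highest control in the 4 other shOpn3 samples. With the 9 general myeloid and leukocyte markers as the reference, which rose by 1.12, Tyrobp was no longer called (log2 difference 0.21, limma adjusted p = 0.326), and Trem2 and Axl turned to -0.19 and -0.08 without a call. Spp1, Cd68, Gpnmb, Itgax and Clec7a had log2 differences from 1.43 to 3.22 against that reference and all 5 were called.

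**Figure D4:**
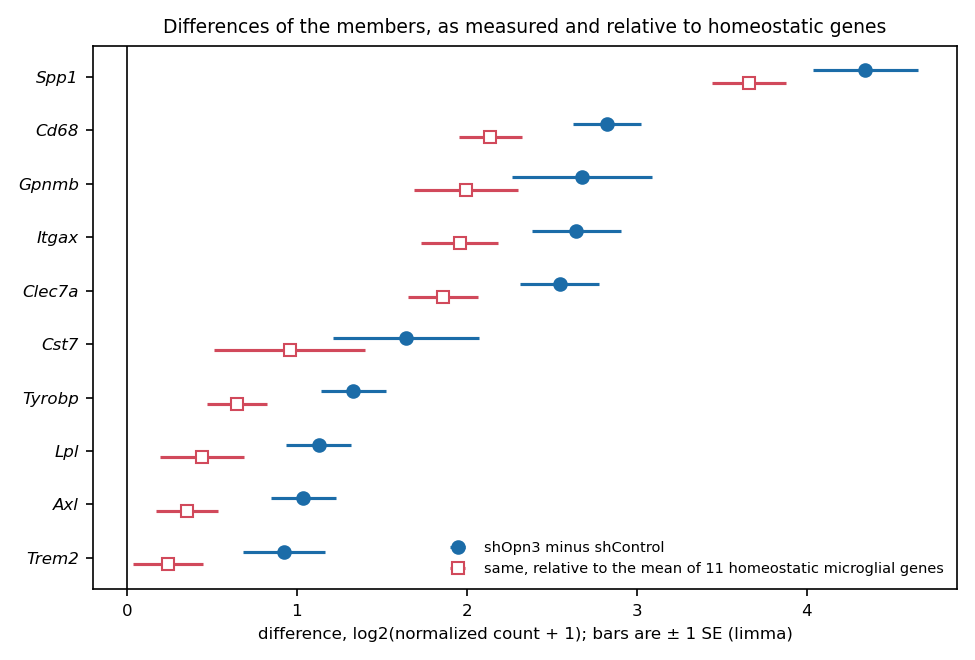
Log2 difference of each member between shOpn3 and shControl (blue circles) and the same relative to the mean of 11 homeostatic microglial genes (red squares); bars are 1 SE on either side. Spp1, Cd68, Gpnmb, Itgax and Clec7a stay at 1.86 or above relative to the reference, and Trem2, Axl and Lpl lie between 0.24 and 0.44.

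Other genes that are known from the disease-associated programme changed less evenly. Of 22 such genes 6 rose and 0 fell (median log2 difference 0.18), beside 10.4% and 8.48% of all genes tested. Lgals3, a galectin of phagocytes, rose from a mean normalized count of 396 ± 108 to 1353 ± 410.4 (n = 5 and SD for both; log2 difference 1.76, limma adjusted p = 0.000532). The growth factor Igf1 rose by 0.84 and the lysosomal protease Ctsz by 1.01 on the log2 scale (limma adjusted p = 0.00274 and 0.00361). B2m (1.07), Lyz2 (0.73) and Ctsb (0.37) were called as well. Apoe, a lipid carrier that astrocytes also make in quantity, was not called (log2 difference -0.04, limma adjusted p = 0.939). Its normalized counts ran from 27006 to 78597 in shControl and from 28833 to 56989 in shOpn3. Cd9, Fth1, Ctsd, Timp2, Csf1 and Fabp5 had log2 differences from -0.13 to 0.08 and did not pass the test either.

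Transcripts of 10 genes that act in signalling below Tyrobp and Clec7a were read, and 7 rose and 0 fell (median log2 difference 1.02). Over all genes tested the shares were 10.4% and 8.48%. Signalling itself was not measured. Vav1 (1.498), Btk (1.29) and Lyn (1.21), which relay signals from immune receptors, had the smallest p-values (limma adjusted p from 0.000568 to 0.000809). Syk, the kinase recruited by both, rose by 0.96, Plcg2 by 0.79 and the lipid phosphatase Inpp5d by 1.08. Hcst, a sister adaptor of Tyrobp, rose by 1.09, from a mean normalized count of 7.65 to 18.1, and passed the filter only through shOpn3. The complex that carries the Clec7a signal to NF-kappaB was not called, with log2 differences of 0.46 for Card9, 0.17 for Bcl10 and 0.28 for Malt1. Malt1 alone of these was called with the replicate block (limma adjusted p = 0.0193).

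Ligands and partners of the members gave a mixed picture, with 8 of 14 tested genes higher and 1 lower (median log2 difference 0.55). Over all genes tested the shares were 10.4% and 8.48%. Itgb2, the beta chain that pairs with Itgax, rose by 1.49 (limma adjusted p = 0.000682). Cd44, a receptor for osteopontin, rose from a mean normalized count of 1747 ± 261 to 3464 ± 403 (n = 5 and SD for both; limma adjusted p = 0.000275). Of the osteopontin-binding integrin chains, Itgb3 rose by 0.87, whereas Itgav (-0.12), Itgb1 (-0.13) and Itgb5 (-0.19) were not called. Gas6, the bridging protein of Axl, was not called (-0.18), and Pros1, a protein related to Gas6, rose by 0.51. Of the relatives of Axl, Mertk rose by 0.59 and Tyro3 fell by 0.69. Ctsc, a cathepsin that cystatin F inhibits, rose by 0.95 (limma adjusted p = 0.000613) and Ctsh by 0.72. Angptl4, an inhibitor of Lpl, rose by 0.72 and the lipase maturation factor Lmf1 was not called (-0.21). Gpihbp1, which anchors Lpl on capillaries, had at most 2.04 normalized counts in any sample and was not tested.

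Markers of other cells were read in the same fit, since blood-borne macrophages can make several members. In that fit 10.4% of all genes tested were called higher and 8.48% lower. Of 10 genes of blood monocytes and border macrophages 3 rose, namely Plac8 (log2 difference 1.84), Cd14 (0.71) and Mrc1 (0.54), and Lyve1, Cd163, Pf4, F13a1, Ms4a7, S100a8 and S100a9 were not called. Their sum lay between 2289 and 3418 normalized counts in shControl and between 3009 and 6845 in shOpn3. Ccr2 was listed too, but no gene carried that symbol, so it could not be read. Of 8 lymphocyte genes 5 rose, with Cd8a (1.04), Cd3e (1.45) and Cd2 (1.21) called at the lowest p-values. Nkg7, also among the 5, passed the filter only through shOpn3 (mean 9.26 in shControl and 20.4 in shOpn3). The sums of the 8 were 71.4 to 189 in shControl and 177 to 485 in shOpn3. None of these genes was at 0 in all samples. Of 7 astrocyte genes 3 rose (Gja1, Gfap and Aqp4, by 0.42, 1.10 and 0.45). Mog and Opalin of the oligodendrocytes fell by 1.30 and 1.07. Of 5 genes of oligodendrocyte precursors 0 rose and 1 fell, namely Sox10 (-1.12). Pdgfra (-0.02), Cspg4 (-0.14), C1ql1 (0.01) and Gpr17 (-0.09) were not called. Of the neuronal genes Rbfox3 rose by 0.62 and Elavl4 fell by 0.57, and of 5 endothelial genes tested 0 were called by limma and 0 had an unadjusted p under 0.05. Slco1a4 was called once the replicate block was added (log2 difference 0.17, limma adjusted p = 0.0442), as was Tubb3 of the neurons (-0.38, limma adjusted p = 0.00850). The part of these other cells in the members' rise was not tested.

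Outside all the lists, the 5 genes whose differences over the 5 pairs lay nearest to the median profile of the members were Clec12a, Cd86, Bcl2a1, Adgre1 and Timp1, at root mean square distances of 0.239 to 0.352 on the log2 scale among 13676 genes compared. Adgre1, which encodes the macrophage marker F4/80, rose from a mean normalized count of 934 ± 67.6 to 3882 ± 1369 (n = 5 and SD for both). Cd86, a co-stimulatory protein of antigen-presenting cells, had a log2 difference of 2.10, and Clec12a, an inhibitory lectin receptor of myeloid cells, of 2.05. Bcl2a1 and Timp1 had differences of 1.89 and 1.95. Bcl2a1 has near copies in mice, and whether reads of any near copy entered its rat counts was not examined.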

How the data were processed

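RNA sequencing of 10 punches (5 shControl, 5 shOpn3) was analysed from a single deposited table. Per the file headers, it holds a signal per gene and sample, that is, gene counts scaled by the authors with a size factor for each sample, together with the authors' log2 fold changes, Wald score and p-values. Per the submitters' processing notes, FastQC, STAR, featureCounts and DESeq2 were used; the genome build, the annotation release and the strand setting are not given in the sources used here. Every positive value was a whole multiple (tolerance 1e-04) of the smallest one of its sample, so whole reads were recovered for 100% of values. DESeq2 (version 1.42.0) on these reads gave the authors' log2 fold changes for all 23160 genes that have one.

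Normalized counts were taken as log2(value + 1). Genes with a mean of at least 10 were fitted with limma (version 3.58.1, R 4.3.3; trend), with the group as the only term. Tests were two-sided with Benjamini-Hochberg adjustment over all 15597 genes and a threshold of 0.05. Differences on this scale understate changes of low genes. The script was tested on simulated data. edgeR (version 4.0.16) on the recovered reads was an alternative, among 19 for the members. Members and lists were chosen with earlier results of these data known. The genes named are the members, Opn3, Avp and Oxt, up to 3 called genes with the lowest adjusted p per list, and the 5 genes nearest to the members' profile; other list genes were named after their values were seen. A few list genes are not reported here by name.

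Per the labels' protocols each rat received both hairpins, but no label ties equal numbers to a rat. With group means removed, samples sharing a number correlated across genes in all 5 pairs (r from 0.121 to 0.439, the lowest in pair 4). For different numbers r ran from -0.447 to 0.36 (median -0.205), so the highest of these exceeded pair 4. Deviations from a group mean sum to 0, so these correlations are not independent of each other. The numbers were taken to pair the samples, which these values do not prove.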

Additional observations from a re-analysis of the deposited data

Results flagged for a closer look

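Among 102 group values of the named genes, 5 had an extreme sample separated from its neighbour by more than 0.71 of the group's range, where about 5.1 would arise by chance at 1 in 20. No member of the disease-associated list was among them. In shControl replicate 1 the normalized count of Oxt was 56716 (next 21354). Cd44 stood at 2191 in shControl replicate 5 (next 1722), and Aqp4 at 95299 in the same sample (next 83143). Cd53 was lowest in shControl replicate 1, at 633 (next 774), and Cd2 was highest in shOpn3 replicate 4, at 82.1 (next 40.2).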

How the results depend on the processing

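All 10 members kept their direction in every alternative that could be fitted. The count of members called higher was 9 or 10 in 19 alternatives, and 9 to 10 when 1 sample was left out. Cst7 was the member missing each time: it lost the call with quantile normalization, and it fell below the low-count filters of edgeR without the block and of the fit without shOpn3 replicate 1. Trem2 stayed called with a highest adjusted p of 0.0495, without shControl replicate 4. Adding the replicate block to limma brought the genes called from 2940 to 4726 (2376 lower), edgeR with the same block, added after seeing the data, called 4823 (2515 lower), and 10 of 10 members were called in both. Leaving out 1 sample gave 1973 to 3057 genes, of which 819 to 1409 were lower, the fewest without shOpn3 replicate 3. Relative to the homeostatic genes, 5 to 7 members were called in 16 alternatives (6 to 7 with 1 sample left out). Axl and Trem2 changed sign there only with the general myeloid reference (-0.082 and -0.19, limma adjusted p = 0.718 and 0.414), and the cause was not tested. Cst7 passed in 7 of those alternatives, Axl without shOpn3 replicate 1 (0.47) and Lpl without shOpn3 replicate 4 (0.69). Axl also passed in the exact permutation test (p = 0.0476), which is among those alternatives and, unlike the limma calls, was not adjusted. Among the other named genes, 22 of 779 values lost the call with the same direction, in Mrc1, Cd3e, Cd2, Aqp4, Sox10 and Elavl4. The block in limma added calls for Tfeb, Malt1, Tmem119, Tubb3 and Slco1a4 and changed no other call among the genes of the lists. Cst7, with 2 to 31 reads per sample, is limited by depth.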
